A study of Homo sapiens with 9 samples.

Results

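The SLC1 family of membrane transporters was followed in RKO, a human colorectal carcinoma cell line, and in RKO clones carrying a deletion in DIP2C. The genes described are SLC1A1 to SLC1A5, 5 of the 23619 gene rows of the 9 samples. They were chosen by family membership, and the family was chosen because the SLC1A3 value was lost in every clone but 1, H9-A4. The values of SLC1A3 are therefore given as a description, without a test, while SLC1A1, SLC1A2, SLC1A4 and SLC1A5 were tested.

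The samples were 2 of parental RKO, 2 of DIP2C-/- clones (C10, E3) and 5 of DIP2C+/- clones (H9-A4 and, beside it, A6-C9, A9-A12, F6-A7 and G1-A5), each harvested after 48 h of growth, and the design asked which genes differ between knockout and parental cells. The parental cells had not been targeted, whereas every clone had passed through infection with a recombinant adeno-associated virus, Geneticin selection, removal of the selection cassette by Cre recombinase and growth from a single cell. Both DIP2C-/- clones came from further targeting of a DIP2C+/- clone, so the clones are not independent of each other, and no clone had been through the same steps with both DIP2C alleles intact. The effect of the deletion and the effects of cloning cannot be told apart here, and the p-values measure only the spread between these samples. In bulk RNA, fewer cells expressing a gene and less RNA per cell cannot be told apart either.

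SLC1 transporters use the sodium gradient to move amino acids across the plasma membrane. The glutamate transporters of the family carry glutamate and aspartate into the cell against a steep gradient, together with sodium and protons and in exchange for potassium. They comprise SLC1A1 (EAAT3), SLC1A2 (EAAT2, also GLT-1), SLC1A3 (EAAT1, also GLAST), SLC1A6 (EAAT4) and SLC1A7 (EAAT5). SLC1A2 and SLC1A3 are best known from glia, where they clear glutamate from the synapse, and SLC1A1 from neurons, kidney and gut epithelium. The remaining members, SLC1A4 (ASCT1) and SLC1A5 (ASCT2), exchange neutral amino acids such as alanine, serine, cysteine and, for SLC1A5, glutamine.

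The promoter windows of the 3 most abundant members, SLC1A3, SLC1A4 and SLC1A5, are shown because they differ in base composition. SLC1A3 was chosen for its loss, and a relation between base composition and change was not tested. Each window holds 250 bases before and 50 bases after the start of the MANE Select transcript. It is written 5′ to 3′ on the strand of the gene, in lower case with every CG dinucleotide in capitals. The letters are those of RefSeq's promoter table and are identical in GRCh37 at chr5:36606458-36606757 (SLC1A3, plus strand), chr2:65216283-65216582 (SLC1A4, plus strand) and chr19:47291802-47292101 (SLC1A5, minus strand).
SLC1A3: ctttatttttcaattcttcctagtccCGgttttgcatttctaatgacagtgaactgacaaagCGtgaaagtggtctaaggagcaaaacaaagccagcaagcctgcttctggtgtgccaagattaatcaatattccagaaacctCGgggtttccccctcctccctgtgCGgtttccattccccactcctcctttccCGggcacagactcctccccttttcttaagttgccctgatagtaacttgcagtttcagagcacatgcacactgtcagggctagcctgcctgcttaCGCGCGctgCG
SLC1A4: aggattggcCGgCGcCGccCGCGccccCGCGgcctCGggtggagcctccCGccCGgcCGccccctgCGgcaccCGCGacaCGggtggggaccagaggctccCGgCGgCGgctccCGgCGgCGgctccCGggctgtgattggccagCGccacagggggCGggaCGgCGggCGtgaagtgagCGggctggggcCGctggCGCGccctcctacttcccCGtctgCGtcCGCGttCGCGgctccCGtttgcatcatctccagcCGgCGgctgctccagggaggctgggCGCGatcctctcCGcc
SLC1A5: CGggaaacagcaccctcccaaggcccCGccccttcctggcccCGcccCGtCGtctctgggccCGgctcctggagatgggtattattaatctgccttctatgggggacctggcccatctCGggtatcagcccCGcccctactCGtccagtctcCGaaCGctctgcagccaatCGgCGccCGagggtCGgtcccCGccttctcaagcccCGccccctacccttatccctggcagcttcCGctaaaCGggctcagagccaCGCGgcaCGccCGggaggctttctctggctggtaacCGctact
The SLC1A3 window held 9 CG dinucleotides and had a GC content of 50%. The SLC1A4 window held 43 CG dinucleotides at a GC content of 78.7%, and the SLC1A5 window 24 at 66.7%. The background was the first listed window of each of the 27305 genes of the table, which need not be at the MANE Select start. Its median was 14 CG dinucleotides. Of these genes 57.9% had at least as many as SLC1A3, 33.7% at least as many as SLC1A5 and 4.87% at least as many as SLC1A4. CG reads the same on both strands and was the only motif counted. SLC1A1 had 33 in its window at chr9:4490218-4490517. SLC1A2 had no matching window in the table. The table holds 3 windows for SLC1A3, 2 for SLC1A4 and 3 for SLC1A5, and which start these cells used was not tested. These counts describe the letters in the windows shown. DNA methylation was not analysed here.

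The targeted gene DIP2C was measured at 61.0 and 70.9 CPM (counts scaled to a common library size, with TMM factors) in the parental samples. It was at 17.4 CPM in E3 and 22.8 CPM in C10. In the DIP2C+/- clones it was at 47.0 CPM in F6-A7, 56.3 in H9-A4, 38.9 in A9-A12, 41.7 in G1-A5 and 33.6 in A6-C9. All 7 clones were below both parental samples, and H9-A4 was the highest of them. Library totals lay between 14772593 and 21486483 counts, with a median of 18751852. Of the defining genes of colon epithelium, the transcription factor CDX2 was at 15.6 to 19.8 CPM and keratin 18 at 121 to 293 CPM, whereas CDH1, VIL1 and KRT20 stayed under 1 CPM in every sample.

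Clone H9-A4 stood apart from the other clones. Between H9-A4 and each other DIP2C+/- clone the chi-square statistic of the counts per degree of freedom was 117 to 137, against 24.6 to 63.3 between the others. The results of the members in all clones are therefore given with and without it. A call is an adjusted p under 0.05 in edgeR's quasi-likelihood test, adjusted by the Benjamini-Hochberg method over all genes tested. In the 9 samples this called 1 of 15532 genes in DIP2C-/- against parental cells (0.00644%), 15 in DIP2C+/- against parental cells (0.0966%) and 28 in all clones against parental cells (0.18%). None was called between DIP2C+/- and DIP2C-/- clones (0%), where 865 genes had an unadjusted p under 0.05 and DESeq2 called 6. Without H9-A4 the calls of the first 3 comparisons were 733 (4.76%), 1224 (7.95%) and 1378 (8.95%) of 15390 genes. All 5 members passed the filter on low counts, and none of the 4 tested members was called in any comparison of the 9 samples. At an unadjusted p under 0.05 there was 1 of these 4, SLC1A4, in each comparison with parental cells. Of all 15532 genes, 1970, 1796 and 2079 reached this in DIP2C-/- clones, DIP2C+/- clones and all clones. DESeq2 called SLC1A4 in all clones against parental cells, where it called 304 of the 15532 genes. The targeted gene DIP2C was not called by edgeR in the 9 samples either. Its adjusted p-values in the quasi-likelihood test against parental cells were 0.0998 (DIP2C-/-), 0.386 (DIP2C+/-) and 0.132 (all clones). Without H9-A4 the adjusted p of DIP2C in all clones was 0.00216 in the same test. DESeq2 called DIP2C in all clones of the 9 samples.

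**Figure D1:**
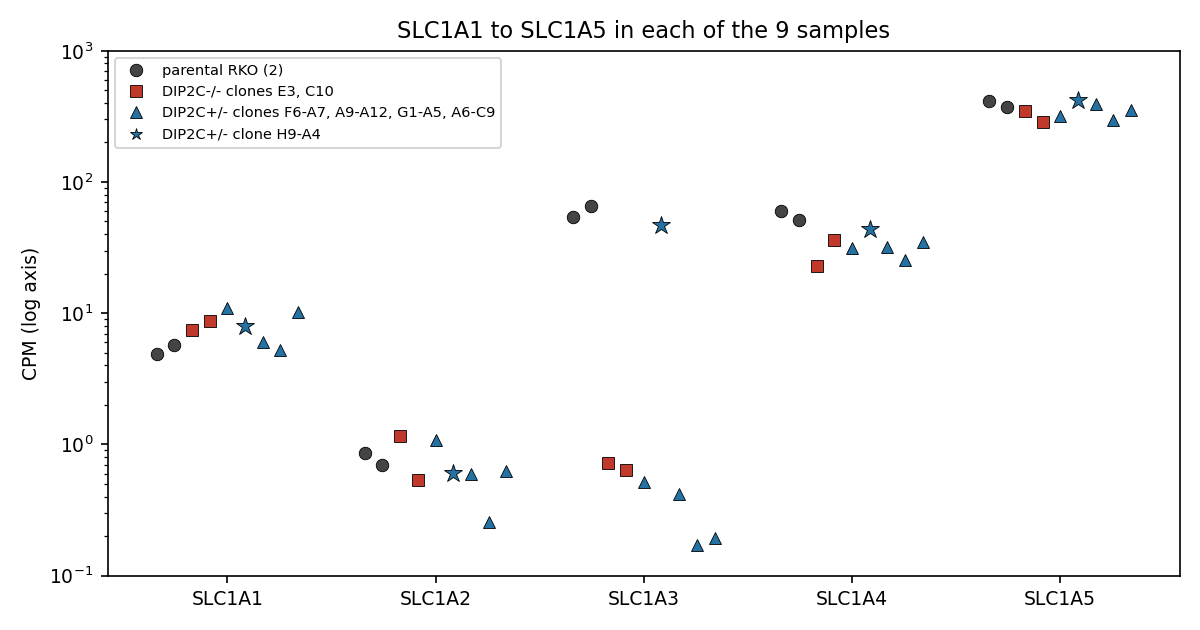
CPM of SLC1A1 to SLC1A5 on a log axis, 1 point for each of the 9 samples (circles, parental; squares, DIP2C-/-; triangles and star, DIP2C+/-). SLC1A3 goes from 53.8 and 65.2 CPM in parental cells to 0.17 to 0.73 CPM in 6 clones, while H9-A4, the star, is at 46.9 CPM; SLC1A5 stays between 287 and 419 CPM in all samples.

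Among the glutamate transporters, SLC1A3 accounted for most of the mRNA of parental cells and almost none in 6 of the 7 clones. SLC1A3 lies on chromosome 5 from 36596690 to 36688436 on the plus strand (GRCh37). It was at 53.8 and 65.2 CPM in the parental samples, a mean of 59.5 ± 8.10 (SD, n = 2). The DIP2C-/- clones E3 and C10 had 0.73 and 0.64 CPM, a mean of 0.683 ± 0.061 (SD, n = 2), which is 1.15% of the parental mean. Both were far below the parental samples and close to each other.

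The DIP2C+/- clones G1-A5, A6-C9, A9-A12 and F6-A7 had 0.17, 0.19, 0.42 and 0.51 CPM of SLC1A3, a mean of 0.325 ± 0.170 (SD, n = 4) and 0.546% of the parental mean. H9-A4 had 46.9 CPM, or 78.9% of the parental mean. H9-A4 was thus below both parental samples but within the same order, while the other heterozygous clones were no higher than the homozygous ones. On the log2 scale with a prior count of 2, the difference from the parental mean was -0.33 in H9-A4 but -7.85 in G1-A5, -7.56 in A6-C9, -6.78 in A9-A12, -6.64 in F6-A7, -6.34 in C10 and -6.18 in E3.

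The depth behind these values sets what can be said of the remaining SLC1A3 signal. Divided by what 1 read is worth in each sample, the parental values correspond to 1261 and 1121 reads. The low clones correspond to 15 reads in E3, 12 in C10, 10 each in F6-A7 and A9-A12 and 4 each in G1-A5 and A6-C9. The 95% exact Poisson interval, which covers counting error only, was 8.40 to 24.7 reads for E3 and 1.09 to 10.2 reads for G1-A5 and A6-C9. The intervals of these clones overlap, and the order among them was not tested. A chosen floor of 3 counts corresponds to 0.14 to 0.203 CPM, computed from the totals without TMM factors. It is not a limit of the libraries, since lower values were recorded.

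SLC1A1, the neuronal and epithelial glutamate transporter, lies on chromosome 9 from 4490468 to 4587469 on the plus strand. It was at 4.91 and 5.76 CPM in the parental samples. The DIP2C-/- clones E3 and C10 had 7.41 and 8.69 CPM. The DIP2C+/- clones had 10.99 CPM in F6-A7, 7.93 in H9-A4, 5.995 in A9-A12, 5.28 in G1-A5 and 10.2 in A6-C9. The values of 6 of the 7 clones were above both parental samples, and only G1-A5 lay between them.

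The log2 fold change of SLC1A1 in all clones against parental cells was 0.60 (SE 0.33, 95% interval -0.12 to 1.33), with an adjusted p of 0.451 in edgeR's quasi-likelihood test, so the difference was not beyond the spread between samples. It was 0.60 in the DIP2C-/- and in the DIP2C+/- clones alike, and the difference between the genotypes was 0.00 (SE 0.33, 95% interval -0.72 to 0.73). Without H9-A4 the change in all clones was 0.61 with an adjusted p of 0.310. The gene SPATA6L overlaps SLC1A1 on the opposite strand without sharing exon bases, and whether counting used strand is not given in the sources used here. SPATA6L was at 0.81 and 0.35 CPM in the parental samples and at 1.41 to 3.97 CPM in the clones. Its log2 fold change in all clones was 2.16 in the 9 samples, where it was not called (adjusted p 0.183 in edgeR's quasi-likelihood test), and 2.28 without H9-A4 (adjusted p 0.0126 in the same test). Its part in the SLC1A1 values was not tested.

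SLC1A2, the main glutamate transporter of astrocytes, lies on chromosome 11 from 35272752 to 35441610 on the minus strand. It was at 0.85 and 0.70 CPM in the parental samples and at 1.16 CPM in E3 and 0.53 in C10. In the DIP2C+/- clones it was at 1.08 CPM in F6-A7, 0.63 in A6-C9, 0.60 in H9-A4, 0.59 in A9-A12 and 0.26 in G1-A5. These values correspond to between 6 and 24 reads, and clones lay on both sides of the parental samples. The log2 fold change in all clones was -0.14 (SE 0.55, 95% interval -1.36 to 1.07), with an adjusted p of 0.942 in edgeR's quasi-likelihood test. The interval spans more than a doubling in either direction, so changes of that size could not be seen at this depth. Without H9-A4 the change was -0.12 with an adjusted p of 0.940.

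The other glutamate transporters were also at low levels. SLC1A6, the transporter of cerebellar Purkinje cells, was between 0.34 and 1.03 CPM over the 9 samples and was not called in any comparison. SLC1A7, the retinal member, was between 0.08 and 0.39 CPM and did not pass the filter on low counts. SLC1A6 overlaps CCDC105 on the opposite strand over 87 exon bases.

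Per kilobase of transcript, the make-up of the glutamate transporter mRNAs differed between the parental cells and the 6 clones. With the length of the MANE Select transcript, SLC1A3 held 89.1% and 89.7% of the summed CPM per kilobase of the 5 glutamate transporters in the parental samples and 82.6% in H9-A4. In the other clones its share was 1.58% to 6.74%, and SLC1A1 held 72.9% to 88.8%, against 8.61% and 8.39% in the parental samples. The sum itself was 15.4 and 18.6 CPM per kilobase in parental cells, 14.5 in H9-A4 and 1.66 to 3.71 in the other clones. With the merged length of all annotated exons, the length fixed as the main one, which is longer for SLC1A3, the parental shares of SLC1A3 were 64.6% and 65.9%, H9-A4 was at 50.9% and the other clones were at 0.336% to 1.61%. The shares of SLC1A1 with that length were 31.5% and 31.1% in the parental samples, 45.9% in H9-A4 and 87.8% to 95.1% in the other clones. The sum was then 3.92 and 4.66 CPM per kilobase in parental cells, 4.34 in H9-A4 and 1.41 to 3.02 in the other clones, so the size of the difference in the sum depends on the length taken. These shares rest on the values for which SLC1A3 was chosen and are a description.

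**Figure D2:**
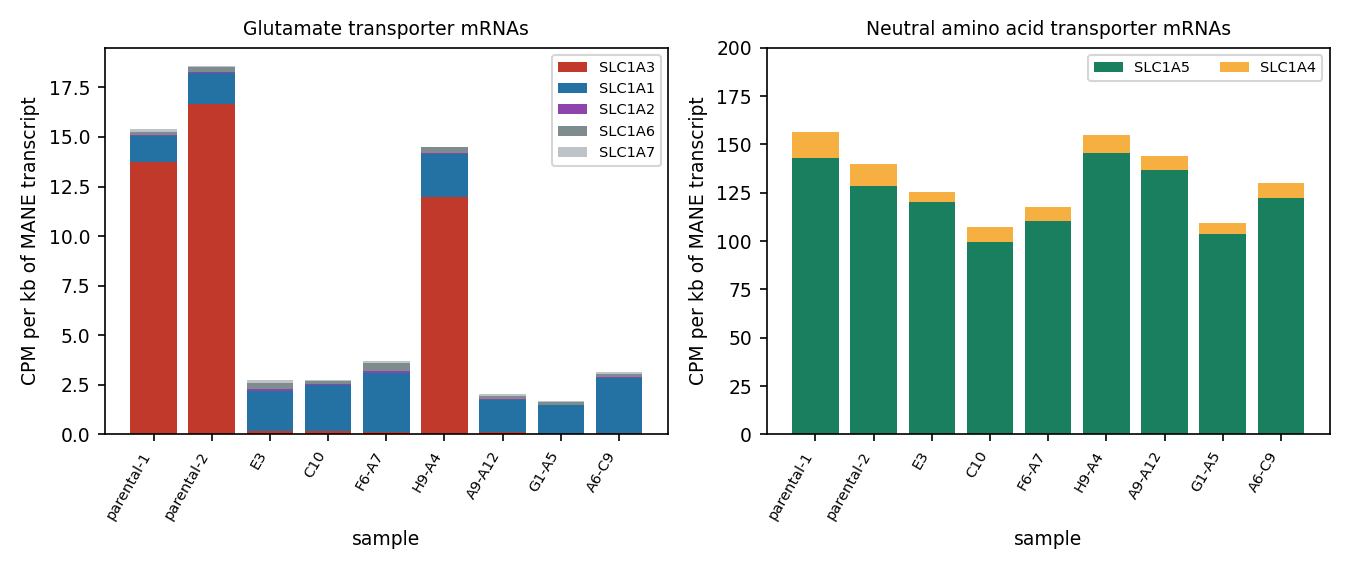
CPM per kilobase of MANE Select transcript in each sample, stacked by gene, for the glutamate transporters (left) and the neutral amino acid transporters (right). The glutamate transporter sum is 14.5 to 18.6 in parental cells and H9-A4, mostly SLC1A3, and 1.66 to 3.71 in the other clones, mostly SLC1A1; SLC1A5 makes up most of the right panel in every sample.

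Among the neutral amino acid transporters, SLC1A4 was lower in every clone than in either parental sample. SLC1A4 lies on chromosome 2 from 65215611 to 65250999 on the plus strand. It was at 59.8 and 51.6 CPM in the parental samples, a mean of 55.7 ± 5.78 (SD, n = 2). The DIP2C-/- clones had 22.8 CPM in E3 and 36.2 CPM in C10, a mean of 29.5 ± 9.50 (SD, n = 2), or 53.0% of the parental mean. The DIP2C+/- clones had 31.4 CPM in F6-A7, 43.8 in H9-A4, 32.0 in A9-A12, 25.5 in G1-A5 and 35.1 in A6-C9, a mean of 33.6 ± 6.72 (SD, n = 5), or 60.3%.

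The clones did not overlap the parental samples, whereas the values of the DIP2C-/- and DIP2C+/- clones overlapped. E3 was the lowest and H9-A4 the clone nearest to parental cells. Of the 15532 genes tested, 864 (5.56%) had all 7 clones below both parental samples, and SLC1A3 and SLC1A4 were among them. All clones above both parental samples was found for 5.34% of genes and for none of the members. The log2 fold change of SLC1A4 was -0.91 (SE 0.28) in DIP2C-/- clones, -0.73 (SE 0.22) in DIP2C+/- clones and -0.78 (SE 0.21, 95% interval -1.25 to -0.32) in all clones. The adjusted p-values of edgeR's quasi-likelihood test were 0.318, 0.363 and 0.253, so SLC1A4 was not called in the 9 samples.

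Without H9-A4, SLC1A4 fell by 0.87 on the log2 scale in the remaining clones (SE 0.18, 95% interval -1.27 to -0.47). The adjusted p was 0.0138 in edgeR's quasi-likelihood test, which called 8.95% of all genes there. H9-A4 was set apart on these same data and had the SLC1A4 value nearest to parental cells, so leaving it out favours a call. In the DIP2C+/- clones alone the change was then -0.85 with an adjusted p of 0.0241, and in the DIP2C-/- clones -0.91 with an adjusted p of 0.0524. A fit of only the 4 parental and DIP2C-/- samples gave -0.93 with an adjusted p of 0.0190, in a comparison that called 1807 of 14381 genes (12.6%). Leaving out any other single sample gave no call, and over all single samples left out the change in all clones ranged from -0.88 to -0.68. The difference between DIP2C+/- and DIP2C-/- clones was 0.18 (SE 0.23, 95% interval -0.33 to 0.70, adjusted p 0.941 in edgeR's quasi-likelihood test). The interval holds differences of up to 0.70, so the data do not show that the genotypes were alike.

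SLC1A5, the glutamine transporter and the most abundant member per kilobase, lies on chromosome 19 from 47278140 to 47291851 on the minus strand. It was at 412 and 370 CPM in the parental samples. The DIP2C-/- clones had 347 CPM in E3 and 287 CPM in C10. The DIP2C+/- clones had 319 CPM in F6-A7, 419 in H9-A4, 395 in A9-A12, 299 in G1-A5 and 352 in A6-C9.

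Of the 7 clones 5 lay below both parental samples, A9-A12 lay between them and H9-A4 above them. The log2 fold change of SLC1A5 in all clones was -0.18 (SE 0.15, 95% interval -0.52 to 0.16), with an adjusted p of 0.643 in edgeR's quasi-likelihood test. Without H9-A4 it was -0.23 (95% interval -0.53 to 0.07) with an adjusted p of 0.350.

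**Figure D3:**
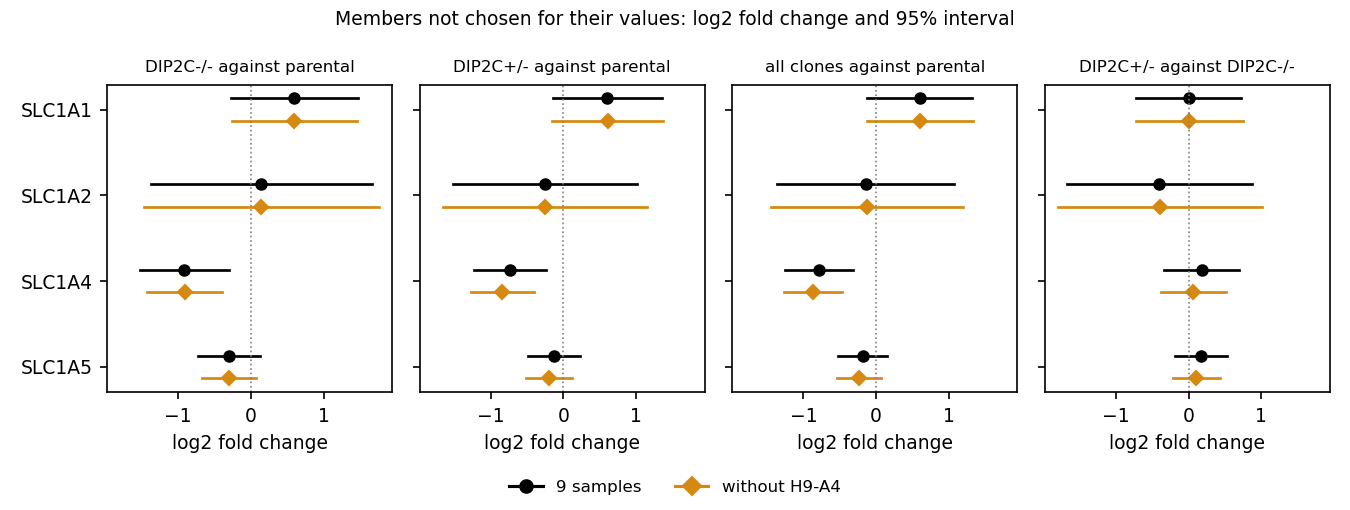
Log2 fold change (point) and 95% interval (line) of SLC1A1, SLC1A2, SLC1A4 and SLC1A5 in the 4 comparisons, in the 9 samples (black circles) and without H9-A4 (orange diamonds). The intervals of SLC1A4 lie below 0 in the 3 comparisons with parental cells, and those of SLC1A1, SLC1A2 and SLC1A5 include 0 throughout. The intervals are not adjusted for the number of genes tested.

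The ratio of SLC1A5 to SLC1A4 was lower in the parental samples than in any clone. With MANE Select lengths, SLC1A5 exceeded SLC1A4 by 10.9 and 11.3 times in the parental samples. In the clones the ratio was 24.1 in E3, 19.5 in A9-A12, 18.6 in G1-A5, 16.1 in F6-A7, 15.9 in A6-C9, 15.1 in H9-A4 and 12.5 in C10. All clones were above both parental samples, C10 by the least. This ratio was not tested.

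In parental cells the order per kilobase of MANE Select transcript was SLC1A5 (136 CPM per kilobase), SLC1A3 (15.2), SLC1A4 (12.2), SLC1A1 (1.44), SLC1A6 (0.191), SLC1A7 (0.104) and SLC1A2 (0.0646). SLC1A3 and SLC1A4 changed places with the merged exon length, at 2.80 and 8.03 CPM per kilobase, so their order depends on the transcript taken. The ranges of SLC1A6 and SLC1A7 overlapped, as did those of SLC1A7 and SLC1A2. In the DIP2C-/- clones the order by the same MANE length was SLC1A5 (110.0), SLC1A4 (6.47), SLC1A1 (2.18), SLC1A6 (0.237), SLC1A3 (0.174), SLC1A7 (0.092) and SLC1A2 (0.071). There SLC1A6 and SLC1A3 differed by less than the SD of SLC1A6 (0.117), and SLC1A7 and SLC1A2 by less than the SD of SLC1A7 (0.074).

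The pattern of SLC1A3 over the 9 samples was shared most closely by 10 genes. Likeness was the root mean square difference in log2 CPM after centring each gene on its own mean, over 15531 other genes with a median of 3.25. The closest were PDE7B, a cAMP phosphodiesterase (0.57), MAP1B, a microtubule-associated protein of neurons (0.60), GRPR, the receptor of gastrin-releasing peptide (0.64), and the long noncoding RNA UCA1 (0.64). They were followed by RAB17, a small GTPase of epithelial trafficking (0.88), CYP24A1, the vitamin D 24-hydroxylase (0.95), ADAMTSL1 (0.98), NNMT, nicotinamide N-methyltransferase (1.00), KCTD12 (1.00) and TSPAN15, a tetraspanin (1.00). The next gene, DCLK1, was at 1.02.

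Of the 10 genes, 1 (MAP1B) lies on chromosome 5 as SLC1A3 does. PDE7B was at 77.9 CPM on average in parental cells, 142 in H9-A4 and 0.464 to 1.79 in the other clones. MAP1B was at 125 CPM in parental cells, 94.3 in H9-A4 and 0.549 to 1.79 in the other clones, and GRPR at 24.3, 25.6 and 0.042 to 0.770 CPM. NNMT differed from the rest in H9-A4, with 52.5 CPM in parental cells, 5.23 in H9-A4 and at most 0.296 in the other clones. KCTD12 was also lower in H9-A4, at 7.69 CPM against a parental mean of 15.7.

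**Figure D4:**
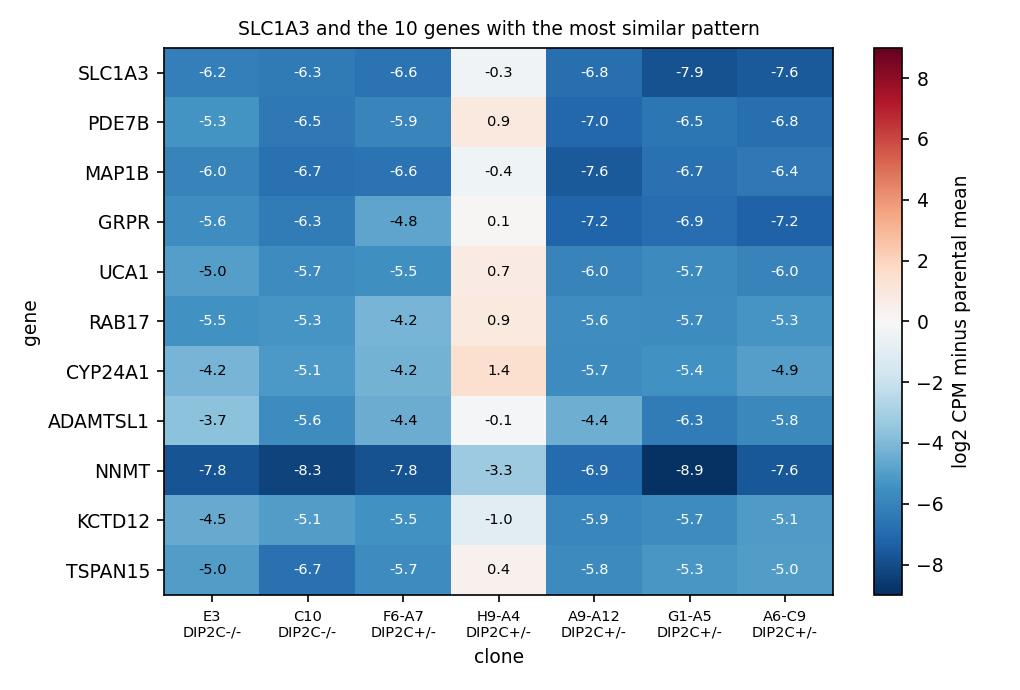
Difference in log2 CPM (prior count 2) from the parental mean in each clone, for SLC1A3 and the 10 genes of most similar pattern. The column of H9-A4 is between -1.01 (KCTD12) and 1.43 (CYP24A1) but -3.30 for NNMT, and every other cell is between -8.91 and -3.70.

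Single clones were also set against the share of genes with a comparable change. SLC1A3 was more than 4-fold below the parental mean in 6 clones, and the share of the 15532 genes that were so low was 0.953% in H9-A4 and 1.31% to 1.80% in the others. SLC1A1, SLC1A2, SLC1A4 and SLC1A5 did not reach a 4-fold difference in any clone. The widest among these were SLC1A4 in E3, at -1.28 on the log2 scale, and SLC1A2 in G1-A5, at -1.27 from 6 reads.

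Genes around glutamate and neutral amino acids were described from 8 lists of 154 genes, of which 135 were tested. In the 9 samples none of these was called in all clones against parental cells by edgeR's quasi-likelihood test. Their median log2 fold change was 0.04 against 0.02 over all genes. An unadjusted p under 0.05 was found for 32 of them, and for 2079 of all 15532 genes. DESeq2 called 5 of them (EZR, DLG1, NEDD4L, GGT1 and MYC), and 304 of all 15532 genes. Without H9-A4, 21 of 133 were called, 11 up and 10 down, which is 15.8% against 8.95% of all genes. Their adjusted p-values in edgeR's quasi-likelihood test were between 8.70e-05 and 0.0485. The lists were compiled with earlier results of these samples known, so these counts are a description.

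The partners of glutamate transporters are proteins that bind, energise, phosphorylate or ubiquitinate them. In all clones without H9-A4 they had no member up and 5 of 15 down, against 690 up and 688 down of 15390 genes. PRKCA, the protein kinase C alpha that phosphorylates glutamate transporters, fell by 1.11 on the log2 scale, with 39.9 and 45.2 CPM in the parental samples, 45.4 in H9-A4 and 16.5 to 22.9 in the other clones. NEDD4L, a ubiquitin ligase of membrane transporters, fell by 1.01 and was at 142 to 148 CPM in parental cells and 52.1 to 95.1 CPM in the 6 clones. Here H9-A4, at 77.7 CPM, lay with the other clones.

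Without H9-A4, EZR, the actin linker ezrin, fell by 0.93 from 370 and 403 CPM to 136 to 285 CPM, with H9-A4 at 196 CPM. DLG1, a membrane scaffold, fell by 0.69, and AJUBA, a LIM protein known to bind SLC1A2, fell by 0.52. The median of the list was -0.23 in all clones in the fit without H9-A4, against 0.01 over all genes. In DIP2C+/- clones alone, that fit had 1 partner up and 3 down, against 673 up and 551 down over all genes.

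Among 26 tested enzymes of glutamate, glutamine and proline metabolism, 1 was up and 3 were down without H9-A4, against 8.95% of all genes called. ASNS, asparagine synthetase, fell by 0.92, from 155 and 158 CPM in parental cells to 70.4 to 94.97 CPM in the 6 clones, with H9-A4 at 142 CPM. GMPS, a glutamine-dependent amidotransferase of purine synthesis, fell by 0.88, and PSAT1, which uses glutamate in serine synthesis, fell by 0.58. CPS1, the mitochondrial carbamoyl phosphate synthetase, rose by 2.00, from 3.38 and 4.99 CPM to 8.05 to 22.7 CPM, while H9-A4 was at 0.725 CPM, below both parental samples.

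Of 11 tested enzymes of serine and aspartate metabolism, without H9-A4, PHGDH, the first enzyme of serine synthesis, fell by 0.66 and ASL, argininosuccinate lyase, rose by 0.89. SHMT2, the mitochondrial serine hydroxymethyltransferase, was at 353 and 372 CPM in parental cells, 399 CPM in H9-A4 and 217 to 400 CPM in the other clones, and was not called. Of all genes 8.95% were called in this fit. The glutathione and cystine list had 3 of 14 tested genes up and none down, although its median was -0.15. These were GGT1, a gamma-glutamyltransferase, which rose by 2.14 from 12.98 and 16.4 CPM to 47.0 to 82.6 CPM (H9-A4 at 21.1 CPM), SLC3A2 and GSS, glutathione synthetase, which rose by 0.76 and 0.73. GGT1 belongs to a family of near-identical copies, and how reads were divided between these was not given in the sources used here.

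Other amino acid transporters went both ways, with 3 up and 1 down of 26 tested without H9-A4, against 8.95% of all genes called. SLC7A5 and SLC3A2, the light and heavy chain of the leucine transporter LAT1, went in opposite directions. SLC7A5 fell by 0.79, from 412 and 500 CPM in parental cells to 198 to 361 CPM, and SLC3A2 rose by 0.76, from 91.5 and 128 CPM to 153 to 225 CPM. H9-A4 was at 505 CPM of SLC7A5 and 94.8 CPM of SLC3A2, with or just above the parental samples. SLC38A5 and SLC38A7, sodium-coupled glutamine transporters, rose by 0.67 and 0.57, and the cationic amino acid transporter SLC7A1 was not called, at 324 to 403 CPM over all samples.

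Without H9-A4, SLC25A22, the mitochondrial glutamate carrier, rose by 0.64 and was the only one called of 6 mitochondrial and vesicular glutamate carriers tested. None of 22 glutamate receptor genes was called by edgeR's quasi-likelihood test, 0 had an unadjusted p under 0.05, and DESeq2 called none in the 9 samples. The most abundant per kilobase was GRIN2D, an NMDA receptor subunit, at 45.8 and 57.3 CPM in parental cells and 43.6 to 81.9 CPM in the clones. Of 16 regulators of the amino acid response tested without H9-A4, 3 rose and none fell, against 8.95% of all genes called. The 3 were SESN2, a leucine sensor (0.69), MYC (0.69) and its partner MAX (0.46). ATF4, the transcription factor of the amino acid response, was at 492 and 520 CPM in parental cells and 405 to 592 CPM in the clones and was not called.

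**Figure D5:**
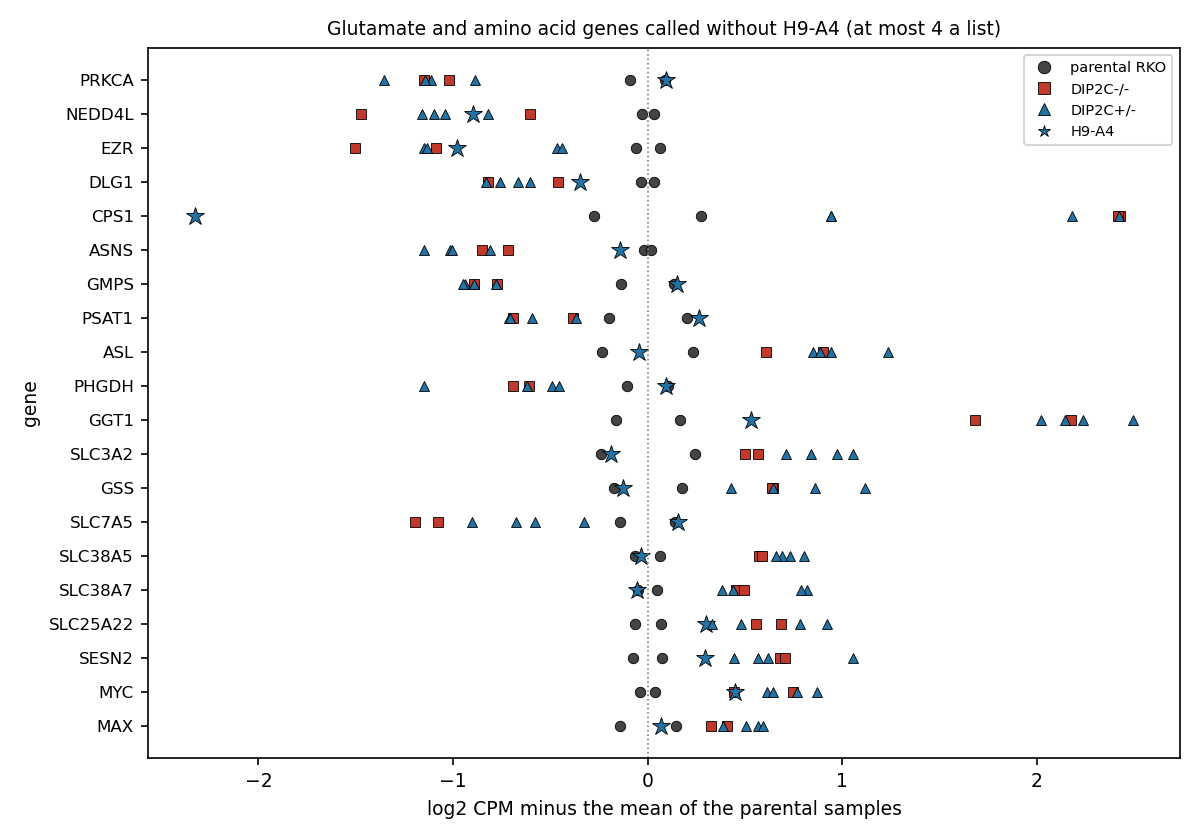
Difference in log2 CPM from the parental mean for genes of glutamate and amino acid handling that were called in all clones against parental cells without H9-A4, at most 4 of each list, 1 point per sample. H9-A4 (star) lies with the parental samples (circles) for genes such as PRKCA, ASNS, GMPS and SLC7A5, with the other clones for NEDD4L and EZR, and below both for CPS1.

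Markers of other cell types were listed because SLC1A2 and SLC1A3 are known from glia. Of 11 glial markers 7 were under 1 CPM in every sample, among them the astrocyte genes GFAP at 0.13 to 0.56 CPM and AQP4 at 0.08 to 0.51 CPM. The summed glial list was 65.7 to 68.8 CPM in parental cells, 219 to 299 CPM in DIP2C-/- clones and 27.6 to 324 CPM in DIP2C+/- clones. CD44, an adhesion receptor that many carcinomas express, was at 24.9 and 28.5 CPM in parental cells, 164 to 287 CPM in the 6 clones and 1.01 CPM in H9-A4. In all clones against parental cells its log2 fold change was 2.76 in the 9 samples (adjusted p 0.364, not called) and 2.996 without H9-A4 (adjusted p 4.71e-05), both in edgeR's quasi-likelihood test, and it was the only one called of 4 glial markers tested without H9-A4. NES, the glial marker with the highest parental level per kilobase, did not rise. It was at 34.4 and 41.4 CPM in parental cells, 23.5 to 39.4 CPM in the 6 clones and 23.7 CPM in H9-A4. CD44 made up most of the sum in the 6 clones. H9-A4 had the lowest sum, 27.6 CPM, and the lowest CD44 value. Because SLC1A3 was chosen for its values in these clones, its relation to this sum was not tested. Of 13 fibroblast, immune and endothelial markers, 5 were under 1 CPM in every sample, and the sum was 94.3 to 96.1 CPM in parental cells, 477 to 483 in DIP2C-/- clones and 24.8 to 681 in DIP2C+/- clones. The lysosomal protein CD68 was at 85.9 and 86.1 CPM in the parental samples, 465 to 674 CPM in the 6 clones and 16.3 CPM in H9-A4. Its log2 fold change was 2.48 in the 9 samples (adjusted p 0.327, not called) and 2.69 without H9-A4 (adjusted p 4.42e-06), both in edgeR's quasi-likelihood test, and it was the only one called of 10 such markers tested without H9-A4, where 8.95% of all genes were called. In the 9 samples the same test called none of the glial or of these markers, with 1 of each list at an unadjusted p under 0.05, and DESeq2 called none. Of 12 colon epithelial markers, 7 were under 1 CPM in every sample. The list summed to 250 to 307 CPM in parental cells, 153 to 185 in DIP2C-/- clones and 184 to 333 in DIP2C+/- clones. Keratin 18 alone was at 121 to 293 CPM over the 9 samples, and EPCAM at 0.05 to 3.78 CPM. For this list edgeR's quasi-likelihood test called none, with 0 at an unadjusted p under 0.05 in the 9 samples and 1 without H9-A4. DESeq2 also called none of it. The part of these differences in the SLC1 values was not tested.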

How the data were processed

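RNA of the 9 samples had been sequenced on the Ion Proton system. According to the methods, the authors aligned reads to hg19 with TopHat2 (2.0.4) and quantified genes with Cufflinks, for which the submitters' notes name version 2.2.1. The authors deposited these as estimated count values with decimals, 1 for each gene, in 1 file per sample. Values above 0 and up to 30 were whole multiples of a step of 0.711 to 1.11, within 0.02 steps, in 98.0% to 98.5% of cases within each sample. Totals were 14772593 to 21486483, and the reads they correspond to were 17135267 to 24863045. The lowest total, that of E3, corresponds to 19675152 reads, and the fewest reads were those of the second parental sample, with a total of 19096540. Poisson intervals cover counting error only.

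Values were rounded to whole numbers, filtered with filterByExpr, scaled by TMM and put through edgeR's quasi-likelihood test (edgeR 4.0.16, R 4.3.3) on all 9 samples with 1 coefficient per group. The contrast of all clones weighted each clone equally. The 95% intervals of log2 fold changes use the moderated degrees of freedom. DESeq2 (1.42.0) was an alternative, beside other scalings, filters, sample sets and each sample left out in turn. MANE Select lengths and Poisson intervals were chosen after seeing the data. Tested on simulated data for all clones against parental cells, 194 of 200 genes changed by a log2 of 2 among 15532 were recovered, with 9 other calls. Genes of low level were not among those changed, and every clone received the same change. The simulation therefore does not show how often smaller changes, or changes absent from a clone such as H9-A4, would be called. GENCODE on GRCh37 gave positions and lengths, the latter for 20402 of 23619 symbols (86.4%). Promoter sequences are from RefSeq, where 6 of 7 family genes matched. Python 3.11.15 was used with pandas 2.3.3, numpy 2.4.6, scipy 1.17.1 and matplotlib 3.10.9.

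The members, gene lists and tests were chosen with earlier results of these data known. Genes named are the family, DIP2C, overlapping genes, the 10 genes most like SLC1A3 and, of each list, up to 4 called genes, or otherwise the largest changes, and the 2 with the highest parental level per kilobase. Some genes that this rule would name are not reported here. AJUBA and DCLK1 were named after their values were seen. The study describes 3 DIP2C+/- clones, and the files hold 5, of which all were used. DNA methylation was not used here.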

Additional observations from a re-analysis of the deposited data

Results flagged for a closer look

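Clone H9-A4 lay apart from the other 4 DIP2C+/- clones in most of the genes below. The measure is the gap between the extreme clone and its nearest neighbour as a share of the whole range of log2 CPM over the 5 clones.

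SLC1A3 was chosen because its value was lost in every clone but H9-A4, and the genes most like it were chosen for sharing that pattern, so their gaps are a description and no test. The gap was 0.838 for SLC1A3, at 46.9 CPM in H9-A4 and 0.17 to 0.513 CPM in the other DIP2C+/- clones. It was 0.861 for PDE7B, 0.840 for MAP1B, 0.931 for UCA1, 0.768 for RAB17, 0.795 for CYP24A1, 0.838 for KCTD12 and 0.877 for TSPAN15, each higher in H9-A4. For GRPR, ADAMTSL1 and NNMT, also among the 10 genes most like SLC1A3, the gap did not exceed 0.71.

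The other genes were named from the lists, most of them for being called without H9-A4, so the number of such gaps is not set against chance, which gives about 1 gap above the critical value of 0.71 for 5 samples in 20 groups. Among genes of amino acid handling the gap was 0.846 for GMPS, higher in H9-A4, and 0.761 for GGT1, 0.724 for SLC3A2 and 0.828 for SLC38A5, each lower in H9-A4. Among the markers it was 0.899 for CD44 and 0.913 for CD68, both lower in H9-A4, and 0.759 for CDX2, at 19.8 CPM in H9-A4 and 15.6 to 16.5 CPM in the others.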

How the results depend on the processing

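No paired analysis was possible because the labels give the samples no numbers shared between groups. With 2 parental and 2 DIP2C-/- samples, leaving out 1 leaves a lone sample that is assumed to vary like the others. SLC1A5 kept its direction and stayed uncalled under every alternative in all 4 comparisons, and so did SLC1A1 in the 3 comparisons with parental cells. SLC1A2 and SLC1A3 gave no value when at least 10 counts were required in every sample.

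SLC1A4 was called at -0.93 in DIP2C-/- against parental cells with only the compared groups, and at -0.79 in all clones with DESeq2. With 1 sample left out its change was -0.85 to -0.63 in DIP2C+/- clones, -1.33 to -0.61 in DIP2C-/- clones and -0.88 to -0.68 in all clones, called only without H9-A4 (-0.85 in DIP2C+/- and -0.87 in all clones). Between genotypes SLC1A4 was -0.12 to 0.60 with 1 sample left out, negative without E3. Between genotypes SLC1A1 turned to -0.041 with library size only and -0.021 with at least 10 counts in every sample, and ranged from -0.13 to 0.17 with 1 sample left out. With 1 sample left out SLC1A2 ranged from -0.52 to 0.58 in DIP2C-/- clones, from -0.31 to 0.018 in all clones and from -0.83 to 0.27 between genotypes. SLC1A3 between genotypes was 3.84 in the 9 samples and -1.08 without H9-A4, within -1.08 to 4.16 over the samples left out.

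Counts of called genes depended on H9-A4. With 1 sample left out they were 1 to 733 in DIP2C-/- against parental cells, 1 to 1224 in DIP2C+/- against parental cells, 1 to 1378 in all clones, 0 to 3 between genotypes and 0 to 23 over all gene lists, and each upper limit but that between genotypes (without C10) was reached without H9-A4. Without either parental sample all clones gave 1 and 2 calls. DESeq2 called 295, 191, 304, 6 and 5. With only the compared groups the counts were 1807 in DIP2C-/- clones, 8 in DIP2C+/- clones and 1 between genotypes, with at least 10 counts in every sample 0, 8 and 11 in the comparisons with parental cells, and with no filter 3 in DIP2C-/- clones. The cause was not tested. Depth limits SLC1A2 and the residual SLC1A3, which rest on 4 to 24 reads.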
